A study of Mus musculus with 2 samples.

Results

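The THO complex and the mRNA export factors were described here by 10 genes: the THO subunits Thoc1, Thoc2, Thoc3, Thoc5, Thoc6 and Thoc7, the export receptor pair Nxf1 and Nxt1, and the cap-binding pair Ncbp1 and Ncbp2. They were taken as every non-control probe that carried one of these gene names, which gave 14 of 39429 probes and 10 of 28312 genes. RNA came from an immortalized line of mouse embryonic fibroblasts (MEF) of genotype Rosa26ERT2 Cre: THOC5 (flox/flox), on the background C57BL/6 x B6:129 Ola. All samples therefore carried the floxed Thoc5 gene and the tamoxifen-inducible Cre recombinase, expressed from the widely active Rosa26 locus. Control cells, labelled wildtype, had received no tamoxifen. THOC5-depleted cells, labelled THOC5 knockdown, were the same cells after 2 days of tamoxifen. On each of 2 dual-color arrays, RNA of unstimulated, serum-starved cells was in Cy3 and RNA of cells given fetal calf serum (FCS) for 1 h was in Cy5. Each condition was measured on 1 array, without exchange of the dyes, so no test between conditions could be made and all differences below lack a replicate check. The control cells had no tamoxifen, so loss of THOC5, tamoxifen and activated Cre cannot be told apart.

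As background, THO is a nuclear complex that travels with RNA polymerase II and, with the helicase DDX39B and the adaptor ALYREF, forms the transcription and export (TREX) complex. TREX packages the new transcript and hands it to the NXF1-NXT1 heterodimer, which carries mRNA through the nuclear pore. The nuclear cap-binding complex, made of NCBP1 and NCBP2, holds the 5′ cap and helps to place TREX near the start of the transcript. In mammals THOC5 and THOC7 form a coiled-coil part of THO, and THOC5 has been linked to the export and 3′-end processing of subsets of mRNAs. The comparison asks whether RNA of the partners was present at another level when Thoc5 RNA was low, and whether serum changed it.

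The probes were 60 bases long, and each member probe was printed as a single spot. 3 sets of probe sequences are shown, for the targeted gene and for the genes whose probes gave different values. Each is a stretch of 30 bases, 5′ to 3′ on the strand printed in the array's files, and capitals mark the polyadenylation hexamers AATAAA and ATTAAA. The first is the probe that reads the targeted gene, Thoc5.
Thoc5, chr11:4828807-4828866 (mm9, + strand), probe bases 28 to 57: agacaccagctaATTAAAatgtcatctgac
The second set is the pair of Thoc2 probes, which lie far apart in the transcript and gave different values.
Thoc2, upstream probe, chrX:39225492-39225551 (mm9, - strand), probe bases 1 to 30: gccaagctgattgctgaactgggacaagat
Thoc2, downstream probe, chrX:39148381-39148440 (mm9, - strand), probe bases 1 to 30: caacATTAAAatatgttctacaaagaaaaa
The third set is the pair of Ncbp2 probes, which lie close to each other and also gave different values.
Ncbp2, upstream probe, chr16:31957203-31957262 (mm9, + strand), probe bases 8 to 37: ttcctctgaaatATTAAAagacagaatcca
Ncbp2, downstream probe, chr16:31957365-31957424 (mm9, + strand), probe bases 1 to 30: actggacaaacatcaggactggcttttata
A hexamer stood on the listed strand in 4 of the 14 member probes (28.6%), those of Thoc5 and Nxt1, the downstream probe of Thoc2 and the upstream probe of Ncbp2. Over all 39429 probes the share was 16.7%, and on the other strand it was 6.56%. A hexamer in a probe is a description of its letters and not a mapped cleavage site. Exon and untranslated-region annotation on mm9 was not used here, so the positions are given without it.

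All 14 member probes were well above background in all 4 channels, and none was saturated. On the arrays 62.1% to 64.4% of 43020 spots were well above background. Differences between arrays were taken on the log2 scale after Aquantile scaling, which gives both arrays the same distribution of mean signals. Serum ratios were taken within an array, as Cy5 divided by Cy3 signals. Probes printed as 10 spots gave the technical spread. Its median SD was 0.068 for a log2 difference between arrays in Cy3, and 0.117 for signals under 300. For log2 serum ratios it was 0.027 with control cells and 0.030 with THOC5-depleted cells. These SDs cover the printing and reading of spots only. The fibroblast identity was borne by 10 of 10 fibroblast markers above background in every channel, with signals of 928 to 96365 in unstimulated control cells. Markers of endothelium were also above background in all channels for 3 of 3 genes, with signals of 42.7 to 902. Markers of blood gave 1 of 4, epithelium 2 of 4 and muscle 1 of 2, with signals of at most 234. Some markers differed between the arrays. The fibroblast collagen Col3a1 was lower in THOC5-depleted cells (log2 -1.13 unstimulated and -0.74 stimulated), as was Twist1 when stimulated (-0.67), and the other 8 fibroblast markers stayed within 1.5-fold. The endothelial Cdh5 was lower (-0.83 and -1.12), and Krt8 was lower when stimulated (-0.90). Among markers above background in only 2 channels, Epcam gave 32.1 and 5.3 and the blood marker Cd68 gave 11.6 and 24.6 in unstimulated control and THOC5-depleted cells, and Ptprc gave 9.5 and 14.4. The part of these markers in the member differences was not tested.

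Thoc5, the gene that tamoxifen was used to remove, had the lowest value of all members in THOC5-depleted relative to control cells. Its probe gave a signal of 4808 in unstimulated and 3047 in stimulated control cells, and 545.6 and 455.1 in THOC5-depleted cells. Both THOC5-depleted signals lay far below both control signals. After scaling, the level was 7.09-fold lower in unstimulated cells (log2 -2.83) and 5.39-fold lower in stimulated cells (log2 -2.43). Of 19082 genes tested in unstimulated cells, 79 had a lower value, and of 18697 tested in stimulated cells, 142 had. The probe starts at base 2173 of its transcript. The floxed exons are not given in the sources used here, so the probe cannot be placed relative to the deleted part. In a bulk sample, fewer cells with Thoc5 RNA and less Thoc5 RNA per cell cannot be told apart.

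**Figure D1:**
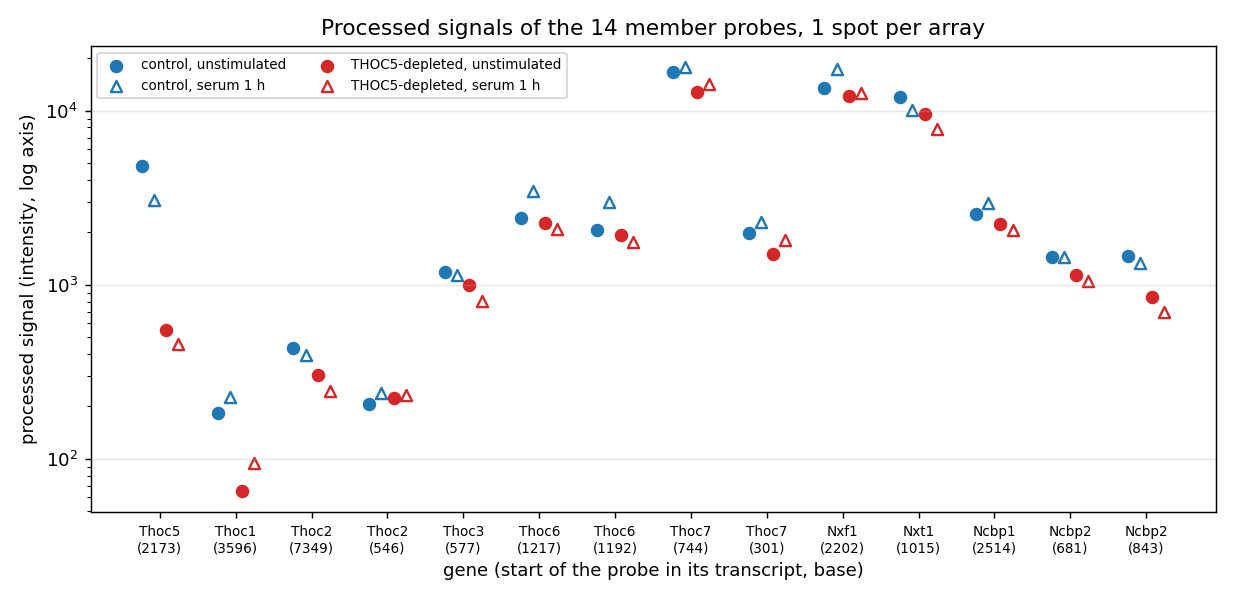
Processed signals (intensity, logarithmic axis) of the 14 probes of the THO and export genes, with 1 point per channel and array and no error bars because each point is 1 spot. The start of each probe in its transcript is given under the gene name, and the 2 THOC5-depleted points lie well under the 2 control points for Thoc5 and Thoc1.

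Thoc1, which encodes the subunit named for yeast Hpr1, was the other THO gene 1.5-fold or more lower in both states. Its probe lies on chromosome 18 of mm9 from 9995224 to 9995283 and starts at base 3596 of the transcript. It gave signals of 183.5 and 226.4 in control cells and of 65.1 and 94.1 in THOC5-depleted cells, unstimulated and stimulated in each case. Before scaling, the ranges of the 2 arrays did not overlap, which held for the brightest probe of every member. The share of all genes with such ranges was not counted. After scaling, the Thoc1 level was 2.45-fold lower in unstimulated cells (log2 -1.29) and 2.09-fold lower in stimulated cells (log2 -1.06). This placed Thoc1 at percentile 2.1 of all genes tested in unstimulated cells and at 2.8 in stimulated cells. The signals lay under 300, in the range where the technical SD was largest, and both differences were larger than that SD. Only 1 probe read Thoc1, so no second probe could be set beside it.

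Thoc2 encodes the large scaffold of the complex, and its probes disagreed in direction. The downstream probe, which starts at base 7349, gave 429.9 and 396.4 in control cells and 301.2 and 243.6 in THOC5-depleted cells. After scaling it was 1.20-fold lower unstimulated (log2 -0.27) and 1.37-fold lower stimulated (log2 -0.45). The upstream probe, which starts at base 546, gave 207.2 and 237.2 in control cells and 222.7 and 231.1 in THOC5-depleted cells. It was 1.25-fold higher unstimulated (log2 0.32) and 1.13-fold higher stimulated (log2 0.18). No direction is therefore given for Thoc2 RNA as a whole.

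Thoc3 encodes a WD-repeat subunit. Its probe (chromosome 13, 54567566 to 54567625) gave signals of 1186 and 1139 in control cells and 995.3 and 808.0 in THOC5-depleted cells. After scaling the log2 difference was 0.04 in unstimulated cells and -0.20 in stimulated cells, both short of 1.5-fold. Thoc7 encodes the coiled-coil partner of THOC5. Its brighter probe (chromosome 14, 14781607 to 14781666) gave 16567 and 17760 in control cells and 12729 and 14136 in THOC5-depleted cells. The raw signals of the THOC5-depleted array were lower for Thoc7, as they were for the median gene, and after scaling the log2 differences were -0.07 and -0.02. These values lie close to the technical SD for signals over 3000, which was 0.054. Its other probe gave -0.10 and -0.04.

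Thoc6 encodes the other WD-repeat subunit and was read by 2 probes that share 35 bases (chromosome 17, 23805740 to 23805799 and 23805765 to 23805824). The stretch of 30 shared bases that opens the brighter probe is shown because the pair serves as a repeat of the same reading.
Thoc6, shared stretch, chr17:23805740-23805799 (mm9, - strand), probe bases 1 to 30: taccgagccttctctttgtccttttgacat
The brighter probe gave 2427 unstimulated and 3470 stimulated in control cells, and 2260 and 2098 in THOC5-depleted cells. The other gave 2058 and 2974 in control cells and 1938 and 1766 in THOC5-depleted cells. In both probes the stimulated control sample stood above the other 3 samples, which lay close together. The level difference was 0.21 and 0.23 in unstimulated cells and -0.41 and -0.44 in stimulated cells (log2, brighter probe first).

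The export receptor pair was bright and nearly level. Nxf1 encodes the receptor itself, and its probe (chromosome 19, 8845319 to 8845378) gave 13562 and 17220 in control cells and 12114 and 12537 in THOC5-depleted cells. The log2 differences after scaling were 0.15 and -0.14. Nxt1 encodes its small partner, and its probe (chromosome 2, 148501703 to 148501762) gave 11920 and 10015 in control cells and 9586 and 7868 in THOC5-depleted cells. Its log2 differences were 0.00 and -0.03, within the technical spread.

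The cap-binding pair was short of 1.5-fold with the brightest probes, and the Ncbp2 value depended on the probe. Ncbp1 encodes the large subunit, and its probe (chromosome 4, 46183371 to 46183430) gave 2561 and 2943 in control cells and 2220 and 2052 in THOC5-depleted cells. Its log2 differences were 0.11 and -0.20. Ncbp2 encodes the subunit that contacts the cap. Its upstream probe gave 1437 and 1442 in control cells and 1136 and 1050 in THOC5-depleted cells, with log2 differences of -0.05 and -0.17. The downstream probe gave 1454 and 1332 in control cells and 854.3 and 697.2 in THOC5-depleted cells, with log2 differences of -0.48 and -0.64. Hence the downstream probe passed 1.5-fold in stimulated cells (1.56-fold lower) and the upstream probe did not. The upstream probe counts as the brightest by its mean over all 4 channels, but in unstimulated control cells the downstream probe was slightly brighter, so this choice rests partly on the THOC5-depleted signals.

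Counted with the brightest probe of each gene, 2 of 10 members were 1.5-fold or more lower in unstimulated THOC5-depleted cells, Thoc5 and Thoc1, and 0 were higher. Over all 19082 genes tested, 14.4% passed this limit in either direction and 7.55% were lower. In stimulated cells the same 2 genes were lower and 0 were higher, where 15.6% of 18697 genes passed and 7.24% were lower. Both genes also passed 2-fold in both states, a limit at which 3.25% of all genes were lower unstimulated and 3.1% stimulated. Thoc1 lost the 2-fold limit after normexp background correction with loess (log2 -0.92 unstimulated and -0.82 stimulated), and in stimulated cells also when channels were scaled to their 75th percentile (-0.986) or to a common median (-0.997). Among the 17230 genes well above background in all 4 channels, as the members are, 9.68% passed 1.5-fold unstimulated and 11.3% stimulated. As Thoc5 is the targeted gene, the count of partners is 1 of 9, a share near these backgrounds. The median log2 difference of the members was -0.02 unstimulated, and 0.00 without Thoc5. In stimulated cells it was -0.20 with or without Thoc5, and all 10 members lay below 0, against 49.8% of all genes and a median of 0.00. Most of these stimulated values were small, from -0.45 to -0.02 outside Thoc5 and Thoc1. The count of 10 rests on the brightest probes, as the other Thoc2 probe lay at 0.18. Thoc7 (-0.02) and Nxt1 (-0.03) were smaller than the technical SD, which was 0.054 in Cy3 for signals over 3000.

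**Figure D2:**
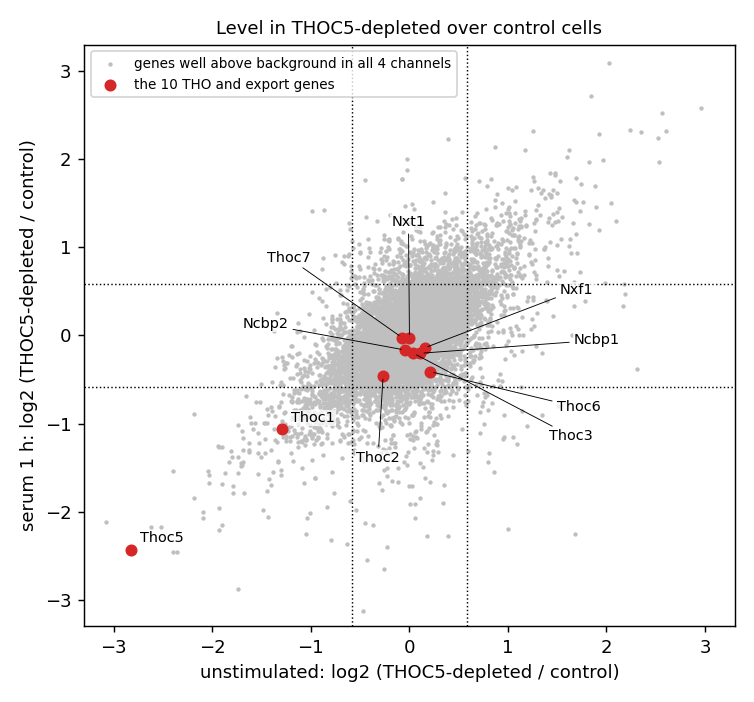
Log2 difference between THOC5-depleted and control cells, unstimulated (Cy3, horizontal) and after 1 h of serum (Cy5, vertical), for the brightest probe of the 10 members (red) and the 17230 genes above background in all channels (grey, 5 outside the axes). Dotted lines mark 1.5-fold, and Thoc5 (-2.83, -2.43) and Thoc1 (-1.29, -1.06) are the members beyond them on both axes.

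The serum response of the members was slight. In control cells, Thoc5 passed 1.5-fold, with a signal of 3047 after serum against 4808 before (1.58-fold lower, log2 -0.66). With ratios shifted to give spike-in probes of both arrays the same mean (their average), it was at -0.54, short of the limit, and Thoc6 passed it at 0.64. Thoc5 was 1 of 10 members, while 13.8% of 18806 genes passed this limit in either direction, 6.91% lower and 6.9% higher. The next in size was Thoc6, which was 1.43-fold higher after serum (log2 0.52), followed by Nxf1 (log2 0.34), Thoc1 (log2 0.30), Nxt1 (log2 -0.25) and Ncbp1 (log2 0.20). The order of Thoc5 and Thoc6 by size turned after normexp with loess (-0.59 and 0.61), and the steps from Nxf1 to Ncbp1 were less than 2 technical SDs each. With their brightest probes, Thoc7, Thoc2, Thoc3 and Ncbp2 lay between -0.12 and 0.10, near the median of all genes (-0.03). The other probes gave 0.21 for Thoc7, 0.20 for Thoc2 and -0.13 for Ncbp2, so the direction for Thoc2 depended on the probe.

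In THOC5-depleted cells, 0 of 10 members passed 1.5-fold, where 5.91% of 18562 genes did and 3.83% were higher. Thoc1 had the highest ratio (1.44-fold, log2 0.53), with signals of 65.1 before and 94.1 after serum. With the brightest probes, Thoc2, Thoc3, Nxt1 and Thoc5 had the lowest, from -0.31 to -0.26. The other Thoc2 probe stood at 0.05, so its direction depended on the probe. Ncbp2 stood at -0.11 with its brightest probe and at -0.29 with the other. Thoc6 stood at -0.11, so that the higher level after serum in control cells was not seen on this array. The members had a median of 0.05 in control cells, against -0.11 with THOC5 depleted. For all genes the medians were -0.03 and -0.02.

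The serum ratio was lower in THOC5-depleted than in control cells for 7 of 10 members, with a median difference of -0.15 (log2). Of all 17230 genes above background in every channel 48.9% were lower, with a median of 0.01. Since it is built from the same 4 signals, this repeats in another form that the stimulated level differences lay below the unstimulated ones. Thoc6 had the largest difference, -0.62 with its brighter probe and -0.66 with the other, and was the member past 1.5-fold. A difference of 1.5-fold or more was found in 7.82% of the 17230 genes, 3.77% in the lower direction, and the SD over all of them was 0.35. Thoc5 moved the other way (0.40), as did Thoc1 (0.23). Beside these values, 10 spike-in probes with RNA added at set amounts had mean log2 ratios of -0.62 (control) and -0.37 (THOC5-depleted), a difference of 0.24 in the direction opposite to that of most members. When each array was shifted so that its spike-in mean equalled the average of both arrays, Thoc6 stood at 0.64 in control cells and at -0.23 in THOC5-depleted cells. This shift leaves that average below 0, and a shift of the spike-in mean to 0 was not run.

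**Figure D3:**
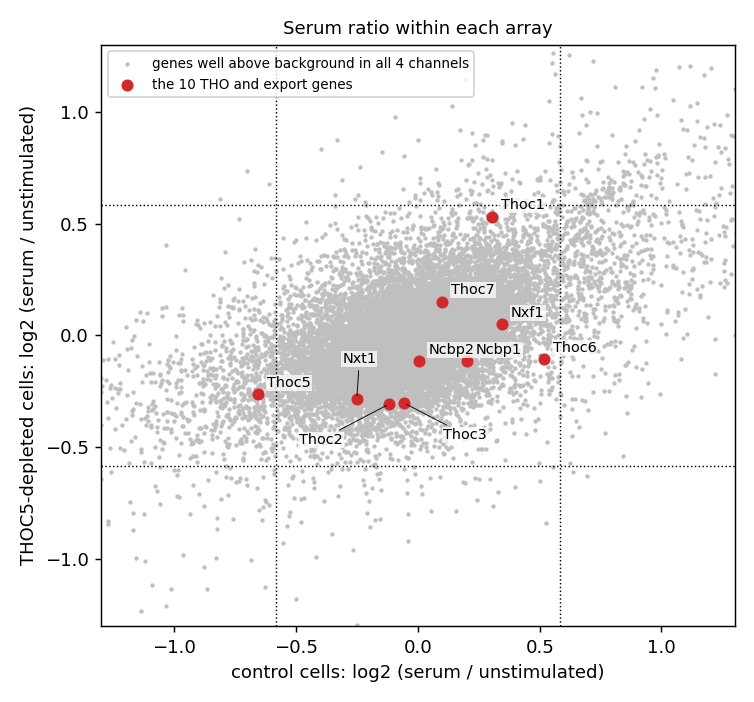
Log2 serum ratio (Cy5 over Cy3) in control cells (horizontal) and THOC5-depleted cells (vertical) for the 10 members (red) and the 17230 genes above background in all channels (grey, 419 outside the axes). Dotted lines mark 1.5-fold. Thoc5 is beyond the line in control cells at -0.66, and Thoc6 is at 0.52 in control and -0.11 in THOC5-depleted cells.

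The genes with 2 probes allowed a comparison of readings within a gene. The overlapping Thoc6 probes agreed within 0.03 (log2) in each of the 4 comparisons, under the technical SD. The Thoc7 probes, which belong to different transcript variants and start 3996 bases apart in the genome, agreed within 0.03 for the level difference. Their serum ratios differed by -0.11 in control and -0.12 in THOC5-depleted cells, more than the technical SD. The second Thoc7 probe (14785603 to 14785662) gave 1978, 2295, 1491 and 1800, in the order control unstimulated and stimulated, THOC5-depleted unstimulated and stimulated.

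The level differences of the Thoc2 and Ncbp2 pairs did not agree. For Thoc2, whose probes start 6803 bases apart in the transcript, the downstream probe gave a value 0.59 lower unstimulated and 0.64 lower stimulated (log2). For Ncbp2, whose probes start 162 bases apart, it was 0.43 and 0.48 lower. All 4 differences were larger than the technical SD. The same measure was taken over 3262 pairs of probes of the same accession. Downstream probes were lower in 68.1% of the pairs in unstimulated cells (median -0.09) and in 52.2% in stimulated cells (median -0.01). Where the starts were 5000 bases or more apart, as in Thoc2, the median of 109 pairs was -0.48 unstimulated and -0.24 stimulated. A value as low as that of Thoc2 or lower was found in 39.4% and 22.9% of them, so the Thoc2 pair did not stand apart from such pairs. Where the starts were 60 to 300 bases apart, as in Ncbp2, the median of 651 pairs was -0.03 unstimulated and 0.01 stimulated. A value as low as that of Ncbp2 or lower was found in 5.07% and 3.99% of them. The part of this shift along transcripts in the values of Thoc5 and Thoc1, whose single probes start at bases 2173 and 3596, was not tested.

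**Figure D4:**
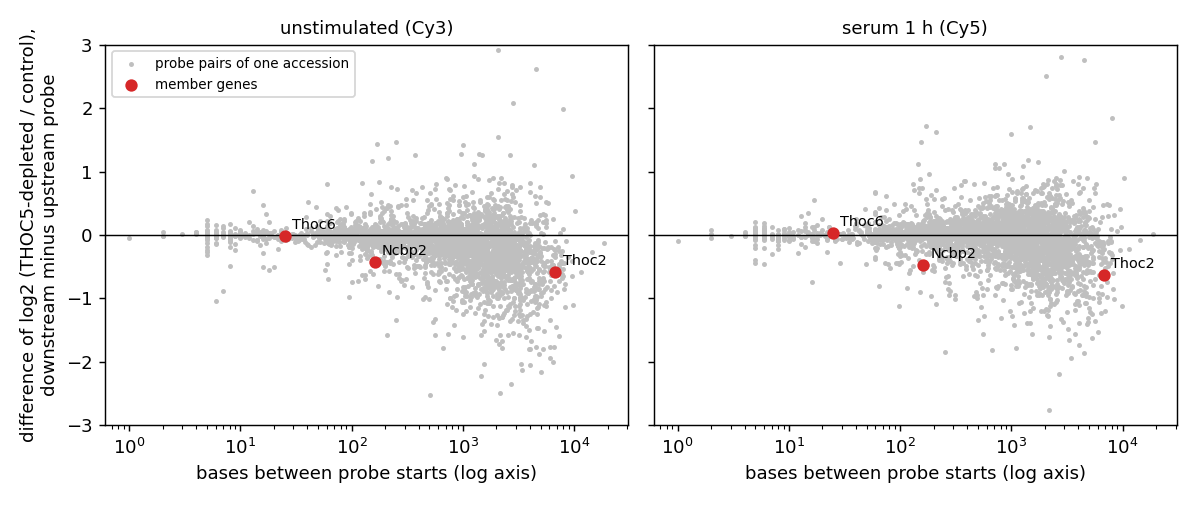
Difference of the log2 ratio of THOC5-depleted over control cells between the downstream and the upstream probe of a transcript, against the bases between their starts (logarithmic axis), unstimulated (left) and after serum (right). Grey points are the 3262 pairs of probes of the same accession, and red points are Thoc2 (-0.59 and -0.64), Ncbp2 (-0.43 and -0.48) and Thoc6 (-0.02 and 0.03).

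The wider export machinery was read from 49 other genes in 5 lists: TREX adaptors and helicases, the TREX-2 complex that links transcription to the pore, nuclear pore and release factors, partners of the cap-binding complex, and the exon junction complex that marks spliced mRNA. All 49 were on the array, 5 of them under older names. In unstimulated cells, 0 of 47 tested genes were 1.5-fold or more lower and 2 were higher in THOC5-depleted cells. In stimulated cells 0 of 48 were lower and 1 was higher. Over all genes 7.55% were lower and 6.88% higher unstimulated, and 7.24% lower and 8.39% higher stimulated. In unstimulated cells the list medians were at most 0.08, the value of both TREX adaptors and helicases and nuclear pore and release factors. In stimulated cells they lay between -0.18 (TREX-2) and 0.04 (nuclear pore and release factors).

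The 2 higher genes were the DEAD-box helicases of TREX. Ddx39b, known as UAP56, which loads ALYREF onto RNA, gave 29588 and 28320 in control cells and 39584 and 36204 in THOC5-depleted cells (chromosome 17, 35390546 to 35390605). Before scaling, both THOC5-depleted signals lay above both control signals, and the share of all genes with such a separation was not counted. After scaling it was 1.60-fold higher unstimulated (log2 0.68) and 1.53-fold higher stimulated (log2 0.61). A second Ddx39b probe gave 2458 and 2612 in control cells and 3865 and 3233 in THOC5-depleted cells, with log2 differences of 0.98 and 0.63. Its close paralogue Ddx39 gave 20306 and 22521 in control cells and 26801 and 24383 in THOC5-depleted cells, 1.60-fold higher unstimulated (log2 0.68) and 1.31-fold higher stimulated (log2 0.39). The 2 helicases are similar in sequence, and reading of both RNAs by the same probe was not tested. Without scaling, the brighter Ddx39b probe was at 0.42 and 0.35 and Ddx39 at 0.40 and 0.11, short of 1.5-fold. Alyref itself gave 33878 and 35791 in control cells and 29277 and 29231 in THOC5-depleted cells, with log2 differences of 0.03 and -0.05.

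Serum ratios past 1.5-fold were rare among these genes. Of the 47 genes well above background in all 4 channels, 0 were higher in control cells and 1 was higher in THOC5-depleted cells (Nxf2), where 6.22% and 2.83% of all such genes were higher. None of the 47 was lower past this limit on either array, against 5.49% of all such genes in control and 1.06% in THOC5-depleted cells. Nxf2 and Nxf3 are relatives of Nxf1. Nxf2 was dim, with 38.4 and 56.1 in control cells and 31.1 and 47.0 in THOC5-depleted cells, and its log2 serum ratios were 0.55 and 0.60. Nxf3 was well above background in Cy5 alone, with signals of 14.9 and 13.5. Its Cy3 level is therefore only a bound. Against the lowest Cy3 signal called well above background, it was at least 1.33-fold higher after serum in control cells and at least 1.21-fold higher in THOC5-depleted cells.

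**Figure D5:**
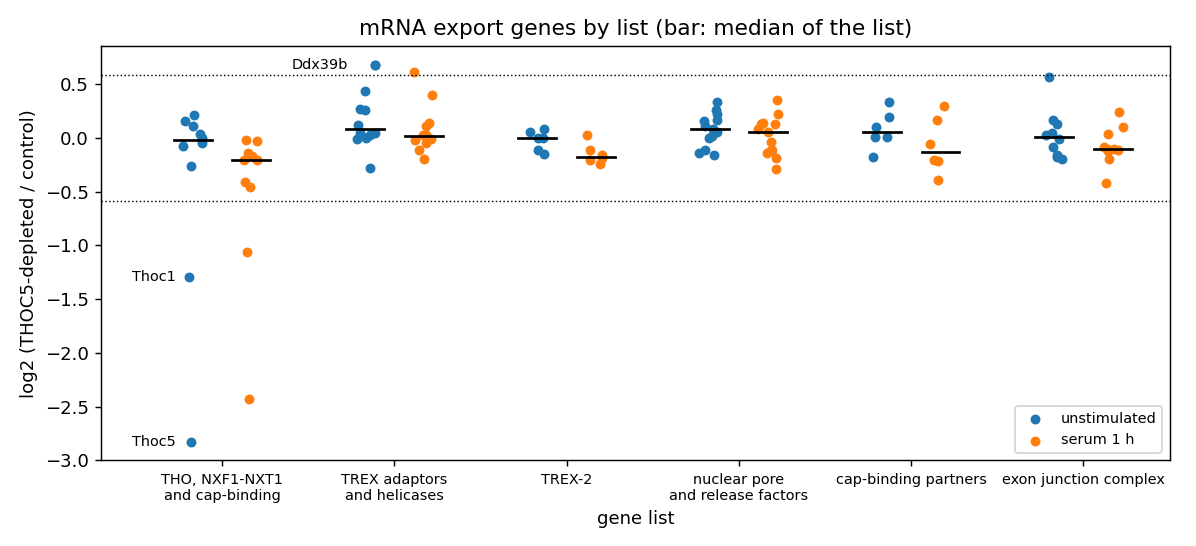
Log2 difference between THOC5-depleted and control cells for the 10 members and the genes of 5 other export lists that were above background in all channels, unstimulated (blue) and after serum (orange), with 1 point per gene and a bar at the median of the points. Dotted lines mark 1.5-fold, and beyond them lie Thoc5, Thoc1 and, on the higher side, Ddx39b at 0.68 and 0.61 and Ddx39 at 0.68 in unstimulated cells.

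Genes around Thoc5 on chromosome 11 were read to see the level of its neighbourhood. Within 250 kb of the Thoc5 probe lay probes of 15 genes, 10 of them above background in all channels. Their log2 differences ran from -0.87 to 0.41 unstimulated, with a median of 0.01, and from -0.67 to 0.46 stimulated, with a median of 0.07. Ewsr1, which encodes an RNA-binding protein and lies 141 kb away, was the gene past 1.5-fold among these 10 in each state. Of all genes above background in all channels, 9.68% passed this limit unstimulated and 11.3% stimulated, a share near that of the neighbours. Ewsr1 gave 14494 and 12445 in control cells and 6325 and 6264 in THOC5-depleted cells, 1.83-fold lower unstimulated and 1.59-fold lower stimulated. The nearest gene with such signals, Nipsnap1, gave 1961 and 1653 in control cells and 1139 and 1004 in THOC5-depleted cells, with log2 differences of -0.49 and -0.42. The other 8 genes lay between -0.10 and 0.46 in both states. Of the dim genes, Gm10278, 61.4 kb away, was well above background in unstimulated control cells alone, with a signal of 14.3 against 4.3 in unstimulated THOC5-depleted cells. Against the lowest scaled signal called well above background it was at least 1.14-fold lower.

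The genes most like Thoc5 were sought by the Euclidean distance between the 4 channel values, each centred on the gene's own mean, over 18037 genes. Nearest was Mest, an imprinted gene of a hydrolase-like protein, at a distance of 0.33 (log2). It gave 1945 and 1023 in control cells and 263.3 and 189.1 in THOC5-depleted cells. Vmn1r124 came next at 0.39, with a control signal of 70.2 in unstimulated cells. It was dim in THOC5-depleted cells (11.8 and 7.9) and well above background in 3 channels. The imprinted noncoding RNA H19 came after it at 0.45, with 490.2 and 289.4 in control cells and 81.2 and 46.0 in THOC5-depleted cells. Vmn1r62 (0.51) and Cdhr1 (0.61) completed the 5 nearest genes, with control signals under 100. None of the other 9 members was among these 5, but 5 places among 18037 genes cannot show whether a member followed Thoc5.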

How the data were processed

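The 2 arrays were dual-color Agilent arrays, 1 of control and 1 of THOC5-depleted MEF. Total RNA was labelled with Agilent's Quick Amp kit, per the labels. This kit primes on the poly(A) tail, so a signal can depend on the distance of the probe from the 3′ end. The authors deposited scanner output of Agilent Feature Extraction 10.7.3.1, which places probes on mm9. Its processed signals are deposited intensities from which background was subtracted and whose dyes were normalized (linear and LOWESS) within an array, without scaling between arrays. The authors also deposited a series table, whose log10 ratios carry no sign (0 negative values in 44397 features). It served as an alternative once each ratio had taken its sign from the scanner output. The number of columns not mapped to a sample was 0.

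Outlier spots (239 and 234) were left out and spots of a probe averaged as log2 values. Levels were compared between arrays after Aquantile scaling (limma 3.58.1, R 4.3.3) with Python 3.11.15. A gene was tested where 1 or more of the 2 channels compared was well above background, and its brightest probe was used. With 1 array per condition, differences are given as values, with counts past 1.5-fold and the share of all genes past it. The number of arrays limits the precision. The procedure was tested on simulated data. Alternatives were other scalings, background corrections, floors, filters, fold limits and probe rules. Symbols were checked through accessions in RefSeq GRCm38.p6, which held 13 of 14 member probes. The named genes are the members, genes of the lists past 1.5-fold in both channels or by serum, genes within 250 kb of the Thoc5 probe, and the 5 genes nearest to its pattern. Ddx39 and Alyref were added after their values were seen. Members and lists were chosen with earlier results of these data known.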

Additional observations from a re-analysis of the deposited data

Results flagged for a closer look

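Read with their brightest probes, 4 of the genes named by rule or in the text and above background in all channels had serum ratios of opposite direction on the 2 arrays, each ratio beyond 2 technical SDs at its signal. Thoc6 was higher after serum in control cells (log2 0.52) and lower in THOC5-depleted cells (log2 -0.11), a difference of -0.62. Ncbp1 stood at 0.20 and -0.11, a difference of -0.31. Ddx39 stood at 0.15 and -0.14, a difference of -0.29. Rhbdd3, a neighbour of Thoc5 on chromosome 11, stood at -0.25 and 0.13, a difference of 0.38. With 1 array per condition, none of these differences was tested. Such opposite ratios were found in 2 of 10 members, in 7 of 47 other export genes and in 12.3% of 17230 genes.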

How the results depend on the processing

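Under the alternatives, the count of members past 1.5-fold between arrays in unstimulated cells stayed within 1.5 times the reported count. Without scaling between arrays, which moves the median of all genes to -0.26 unstimulated and -0.25 stimulated (log2), the stimulated count was 4 in place of 2, and Thoc5 stood at -3.14 and -2.74. The count of members changed by serum in control cells was 2 after normexp with loess and 2 without dye normalization, with Thoc6 added in both, and 0 at a limit of 2-fold. With ratios shifted to the same spike-in mean on both arrays it was 1, but the gene was Thoc6 (0.64) and Thoc5 stood at -0.54. No member value past 1.5-fold with the reported settings changed sign under these alternatives. Thoc5 ranged from -3.14 to -2.79 unstimulated and from -2.74 to -2.40 stimulated, and Thoc1 from -1.49 to -0.92 and from -1.27 to -0.82. All 10 members lay below 0 in stimulated cells under each of the 8 scaling, filter and correction alternatives that kept the brightest probe. Of these, the floor and the filter on dim probes left the member values unchanged, and keeping outlier spots hardly moved them. Leaving out the scaling lowered the median of all genes as well. With the dimmest probe, Thoc2 stood at 0.18 in stimulated cells. In unstimulated cells 5 to 6 members lay below 0 with the brightest probe, and 10 without scaling. The sign of the small unstimulated values of Thoc3, Thoc6, Nxf1, Nxt1 and Ncbp1 therefore depends on the scaling, and that of Thoc2 on the probe. Over all pairs of an alternative and a member value other than the Thoc5 levels, 274 moved by less than the technical SD and 86 by more. Many of the 274 could not move. The floor, the filter on dim probes and the series table returned the reported member values, and probe rules cannot move a gene read by 1 probe. No paired analysis was possible because each condition has 1 array.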
